A study of Mus musculus with 2 samples.

Results

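Genes for heat shock proteins and their co-chaperones were examined in RNA sequencing libraries from the mouse embryonic stem cell line 46C. The members were the rows of the deposited expression table whose symbols named an HSP70, HSP110, HSP90, HSP60, HSP10 or small heat shock protein, a J protein, a subunit of the chaperonin TRiC, a BAG protein, Stip1, St13, Ahsa1 or a heat shock factor, with a mean of both libraries of at least 50. Of 85 rows with such symbols, 81 met this floor, among 12679 genes of 14398 that did. The control library (PB) came from cells transfected with the PB vector alone, and the other library (PB-ID2) from cells that overexpressed ID2, a helix-loop-helix protein that dimerizes with E proteins. Both cultures were at passages 21 to 24 per the labels, and grew on gelatin in serum medium with leukemia inhibitory factor. Each group had 1 library, so differences between them carry no error and no test. A gene is called higher or lower as it stood in the ID2 library relative to the control, whatever set the cultures apart. Bulk RNA does not tell fewer cells expressing a gene from less RNA per cell.

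Chaperones bind unfolded protein segments and keep them from aggregating. HSP70 proteins do so in cycles of ATP hydrolysis that J proteins start and that BAG, HSP110 and other nucleotide exchange factors reset; HSP90 receives clients from HSP70 through the adaptor STIP1. TRiC, a double ring of related subunits, encloses actin, tubulin and other proteins while they fold. When unfolded protein accumulates in the cytosol, the transcription factor HSF1 binds heat shock elements and induces many of these genes, while unfolded protein in the endoplasmic reticulum (ER) acts through the ER stress element. Embryonic stem cells are known for high constitutive levels of several chaperones.

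Promoter sequences are shown first, because some of the genes described below held an ER stress element or a heat shock element. RefSeq promoter windows (build GRCm38.p6, 250 bases before to 50 after a gene's annotated start) were matched by symbol for 62 of the 81 members; Hspa8, Hsp90aa1 and Hsp90ab1 were among the 19 that were not matched. The ER stress element was searched as CCAAT and CCACG with any 9 bases between them, on both strands. It was found in 3 of the 62 members (4.84%) and in 37 of 27025 genes with a window (0.137%). The 3 members encode the ER HSP70 (Hspa5), the ER HSP90 (Hsp90b1) and the ER J protein Dnajc3. Capitals mark the element, and each line runs 5′ to 3′ on the gene's strand.
Hspa5, chr2:34772005-34772064, plus strand: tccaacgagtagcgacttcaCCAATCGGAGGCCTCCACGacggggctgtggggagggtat
Hsp90b1, chr10:86705617-86705676, minus strand: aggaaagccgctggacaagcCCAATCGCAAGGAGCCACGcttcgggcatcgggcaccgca
Dnajc3, chr14:118937807-118937866, plus strand: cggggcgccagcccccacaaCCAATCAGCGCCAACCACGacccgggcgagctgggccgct

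A heat shock element of 3 units was searched as TTC, GAA and TTC, or GAA, TTC and GAA, with any 2 bases between units; these forms are each other's reverse complement, so both strands were covered. It was found in 4 of the 62 members (6.45%) and in 179 of 27025 genes (0.662%). These were Hspd1 and Hspe1, which encode the mitochondrial chaperonin HSP60 and its lid HSP10, the J protein gene Dnajb6 and the HSP110 gene Hsph1. Hspd1 and Hspe1 are neighbours, and the stretches shown for them are 2 strands of 1 site between the Hspe1 start and an annotated Hspd1 start. The Hsph1 match began 36 bases after an annotated start and is shown without flanks.
Hspd1, chr1:55088037-55088096, minus strand: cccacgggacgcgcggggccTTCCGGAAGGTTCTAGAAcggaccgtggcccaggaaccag
Hspe1, chr1:55088039-55088098, plus strand: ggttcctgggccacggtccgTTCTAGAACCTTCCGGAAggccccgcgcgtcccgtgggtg
Dnajb6, chr5:29735832-29735891, plus strand: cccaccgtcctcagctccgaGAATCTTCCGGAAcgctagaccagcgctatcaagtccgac
Hsph1, chr5:149636288-149636300, minus strand: TTCTGGAAAGTTC

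A core of 2 units (GAA and TTC, or TTC and GAA, with any 2 bases between, each its own reverse complement and contained in the longer element) was found in 17 of 62 members (27.4%) and in 4587 of 27025 genes (17.0%). The 2 stress-inducible HSP70 genes, Hspa1b and Hspa1a, hold it at the same place. They are printed in full from 250 bases before the start, since they also show how alike these copies are: 3 substitutions in 250 bases separate them, written from Hspa1b to Hspa1a and counted from 1 at the 5′ end as T44C, C47T and G249T. A match is a match of letters and not a tested site.
Hspa1b, chr17:34959239-34959488, minus strand: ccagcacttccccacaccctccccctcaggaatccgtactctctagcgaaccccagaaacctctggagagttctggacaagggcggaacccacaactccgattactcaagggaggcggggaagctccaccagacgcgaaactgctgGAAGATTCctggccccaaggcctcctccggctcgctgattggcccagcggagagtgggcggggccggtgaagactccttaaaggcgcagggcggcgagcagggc
Hspa1a, chr17:34972157-34972406, minus strand: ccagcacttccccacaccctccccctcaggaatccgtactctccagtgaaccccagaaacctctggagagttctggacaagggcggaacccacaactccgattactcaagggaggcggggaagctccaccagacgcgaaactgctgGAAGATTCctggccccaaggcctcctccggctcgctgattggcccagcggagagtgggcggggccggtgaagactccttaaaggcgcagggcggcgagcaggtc

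Values are the authors' normalized values, of unknown sequencing depth, and ratios are log2 of (ID2 value + 1) over (control value + 1). Each value, to a tolerance of 0.01 of a step, was a whole number of steps of a fixed size per library, and the sorted whole numbers were identical in both libraries (0 ranks differed). The highest sorted numbers fell in blocks of 10 ranks. In the first, 10 genes shared the highest value. The next 10 lay within 1.003-fold of each other and 1.83-fold below, and the third block lay 1.30-fold below the second. Of the first 100 blocks of 10 ranks, 73 had a larger step at the lower edge than between any 2 neighbouring ranks within. Among genes with means above 8000, 394 had a whole number that fixed their position within a block in both libraries, and all 394, 14 members among them, kept that position. Median transcript GC contents of these genes ran from 47.1% to 57.6% over the 8 positions they filled. At this level a value thus gave a gene's order among the genes at its own position, and no header or label names the step that made it so.

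**Figure D1:**
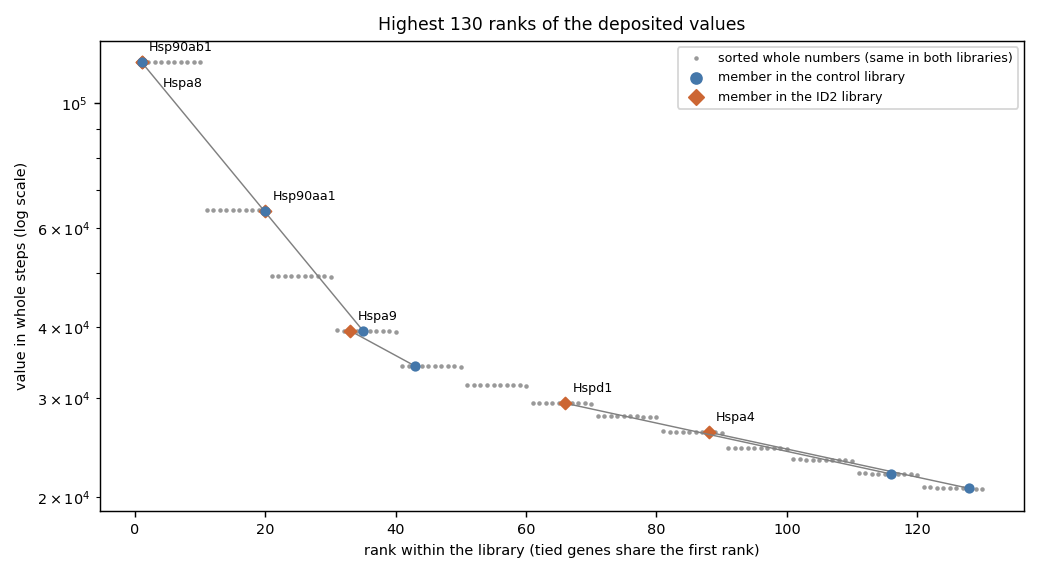
Value in whole steps (log scale) against rank for the highest 130 ranks of both libraries; grey points are the sorted values, circles the control library and diamonds the ID2 library, for members within these ranks in both. The grey points form flat blocks of 10, and Hspa8 moves from the block that begins at rank 31 to the shared maximum.

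Hspa8 encodes HSC70, the constitutive cytosolic HSP70. Its value was 39235 in the control and 118714 with ID2, a 3.03-fold higher value (log2 ratio 1.60), with an adjusted p of 3.05e-06 in the authors' deposited table. As deposited, it had the largest ratio of the 81 members in either direction. The ID2 value was the column maximum. Among the genes at its own position, Hspa8 was 4th in the control library, after Rps3, Rplp0 and Rps6, and 1st in the ID2 library, where Rps3 was 2nd, Rps6 3rd and Rplp0 4th. Hspa8 had a position of its own only by its control value, and Rps3 only by its ID2 value, since 10 genes share each maximum; these orders assume that both kept it, as the 394 genes did. With the maximum of each library set to the next highest value, an alternative chosen after seeing the data, Hspa8 stood 1.65-fold higher (log2 ratio 0.73). Its ratio was then below those of Dnajc30 (1.18), Dnajc28 (0.95), Bag2 (0.92) and Dnajb13 (0.77). The negative ratios of Hspa1a (−0.998), Hsf4 (−0.99) and Hspa2 (−0.80) were then also larger in size. Of its 50-base transcript windows, 74.8% also occurred in transcripts of other genes, and 70.0% in the single gene Gm15459. How reads with several matches were counted is not given in the sources used here, and their part in the difference was not tested.

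Hsp90ab1, the constitutive cytosolic HSP90, was the only other member at a column maximum. It stood at the maximum in both libraries (117568 and 118714), so a difference that left it at the maximum could not appear in its values. Its log2 ratio of 0.01 is that of any 2 equal whole numbers. The other genes at the maximum in both libraries were Eef1a1, Fn1, Gapdh, Npm1, Pabpc1, Rpl4 and Rps2. Besides Hspa8, the genes at the maximum in 1 library were Atp5b (1.85-fold higher), Rps24 (1.81-fold lower) and Rps3 (1.81-fold lower). Each of these ratios spanned the gap between the first and the second block.

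Over the 81 members, 46 were higher, 31 lower and 4 equal in whole steps; of all 12679 genes above the floor, 47.2% were higher, 51.5% lower and 1.29% equal. The median log2 ratio of the members was 0.05, beside −0.0023 for all genes. Hspa8 and Dnajc30 (2.47% of members) were at least 2-fold higher, beside a background of 2.53%, and 0 members were at least 2-fold lower, beside 1.86%; no test was run with 1 library per group, and without the pseudocount 2 members, Hspa1a and Hsf4, passed the lower threshold. At a threshold of 1.5-fold, 9 members (11.1%) were higher, beside 8% of all genes, and 4 (4.94%) lower, beside 6.59%. The shares at 2-fold lay close to the background. The members Hspa8, Hspb1 and Dnajc11 had an unadjusted p under 0.05 in the authors' deposited table (3.7%), beside 4.33% of all genes, and 1 member, Hspa8, had an adjusted p under 0.05 (1.23%), beside 0.205% of all genes.

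**Figure D2:**
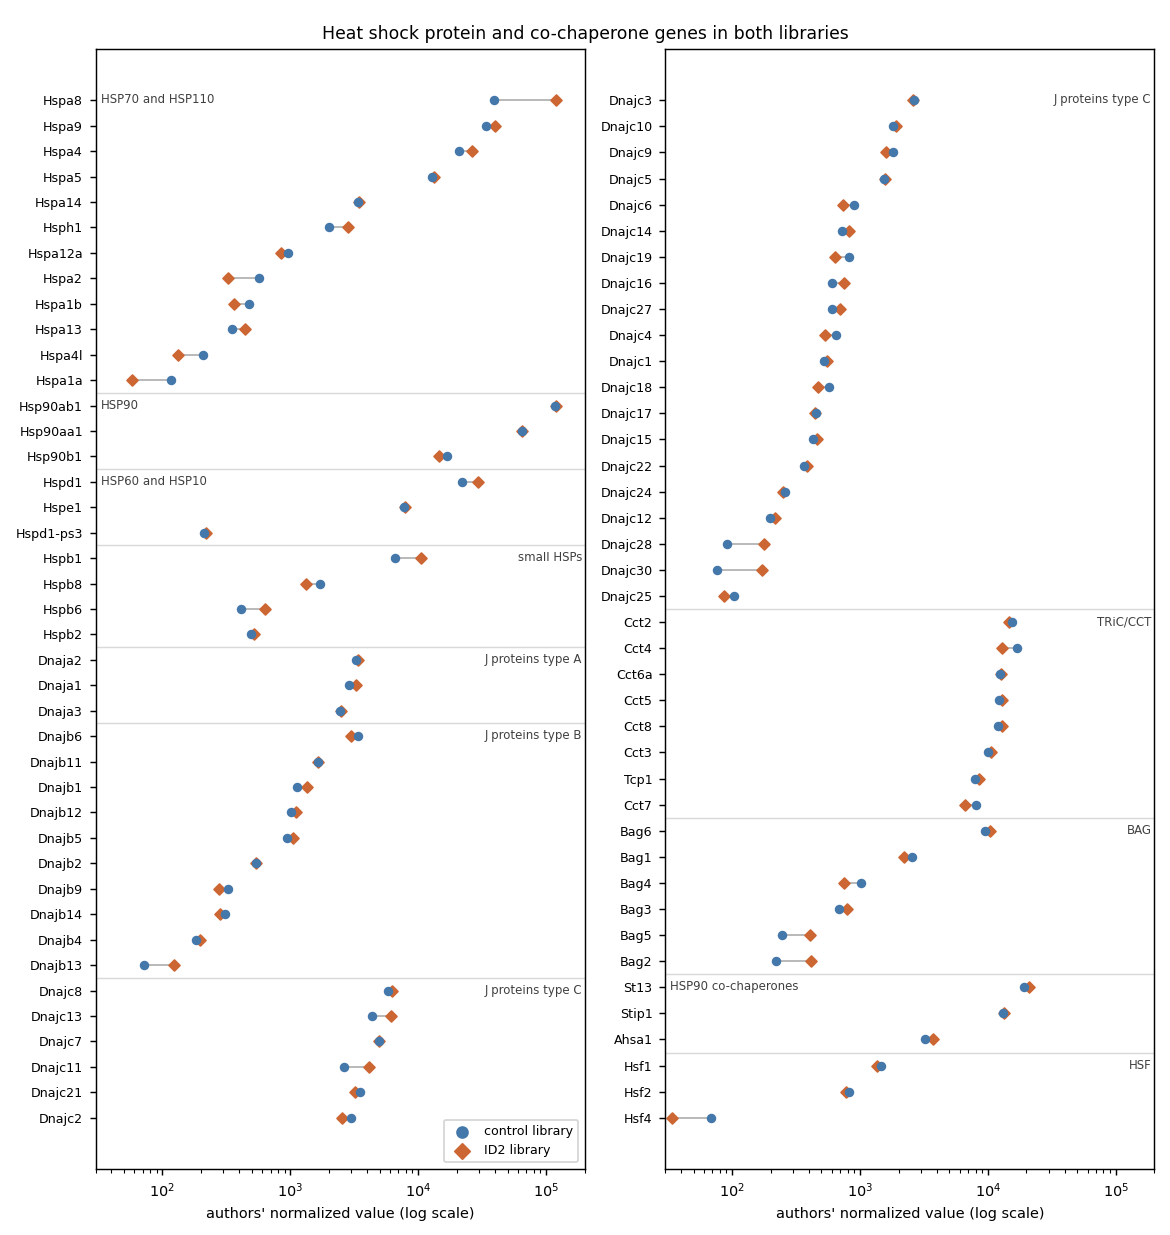
Normalized value of each of the 81 members in the control library (circles) and the ID2 library (diamonds), on a log scale, grouped by family and ordered by mean within a family. Most pairs nearly coincide; Hspa8, at 39235 and 118714, is the widest gap among the abundant genes.

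Members just inside the floor were Hsf4 (mean 51.4), Hspa1a (87.9) and Dnajc25 (94.96). Just outside it were Dnaja4 (47.5), Cct6b (40.98) and Hspb11 (39.98), and the remaining row was Hsf5 (34.0). All 4 rows under the floor were lower in the ID2 library, with log2 ratios from −0.66 to −0.26. One member, Hspd1-ps3, is annotated as a processed pseudogene of Hspd1.

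The spread of ratios among all genes narrowed with level, so each member was also set against genes of its own level, in quintiles of the mean. In the lowest quintile, with means of 50 to 195, the log2 ratio ran from −1.09 at the 5th percentile to 1.23 at the 95th. In the highest, with means above 2366, it ran from −0.39 to 0.45, and 36 of the 81 members lay there. Above the 95th percentile of their quintile were 6 members (7.41%, beside 5.01% of all genes): Hspa8, Hsph1, Hspb1, Dnajc11, Dnajc13 and Bag2. Hspa2 was the 1 member below the 5th percentile (1.23%, beside 5.01%). The 2.27-fold difference of Dnajc30 lay inside the range of its quintile.

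**Figure D3:**
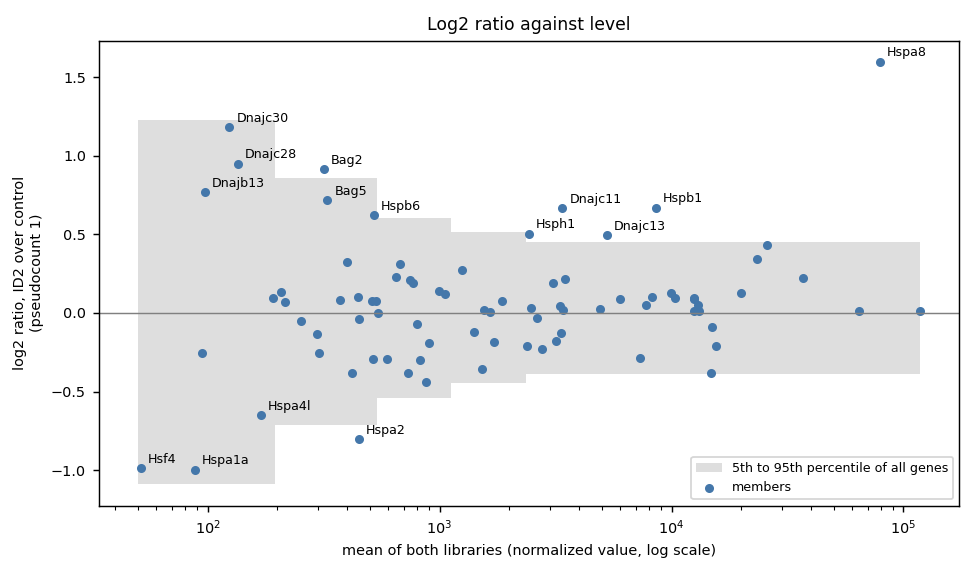
Log2 ratio (ID2 over control, pseudocount 1) of each member against the mean of both libraries on a log scale; grey bands span the 5th to the 95th percentile of all genes in each quintile of level. Hspa8, Hspb1, Dnajc11, Dnajc13, Hsph1 and Bag2 lie above their band, and Hspa2 lies below.

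HSP70 and HSP110 genes went both ways: 7 of 12 stood higher and 5 lower (median 0.04), and their ratios spanned −0.998 to 1.60. Hspa4, an HSP110-type exchange factor, stood at 20632 and 26207 (0.35), control value first here and below. Hspa9, the mitochondrial HSP70 mortalin, stood at 33979 and 39640 (0.22). The abundant members above were thus higher, as was the HSP110 gene Hsph1 at 2002 and 2841 (0.50). The ER forms Hspa5 (BiP; 12748 and 13204, 0.05) and Hspa13 (352 and 442, 0.33) and the ribosome-associated Hspa14 (3371 and 3420, 0.02) complete the 7 higher genes.

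The 5 lower HSP70 genes were among the less abundant of the family. Hspa2, known for its role in male meiosis, stood at 569 and 326 (1.75-fold lower, −0.80). Hspa4l stood at 207 and 132 (−0.65), and the divergent member Hspa12a at 956 and 839 (−0.19). The stress-inducible Hspa1a stood at 117 and 58.3 (1.998-fold lower, −0.998) and Hspa1b at 474 and 363 (−0.38). Both inducible copies were lower, inside the range of all genes at their level, while the constitutive Hspa8 was higher. Of the 23 genes above the floor listed below as induced through HSF1, all of these among them, 13 were higher, 7 lower and 3 equal by whole steps. The open reading frames of Hspa1a and Hspa1b were 99.4% identical, and 58.8% of the Hspa1a windows occurred in Hspa1b, so their values cannot be fully told apart. By the same measure, identical columns of a global alignment with gaps counted as columns, the Hspa8 reading frame was 74.1% identical to that of Hspa1a, 62.4% to that of Hspa5 and 55.4% to that of Hspa9.

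**Figure D4:**
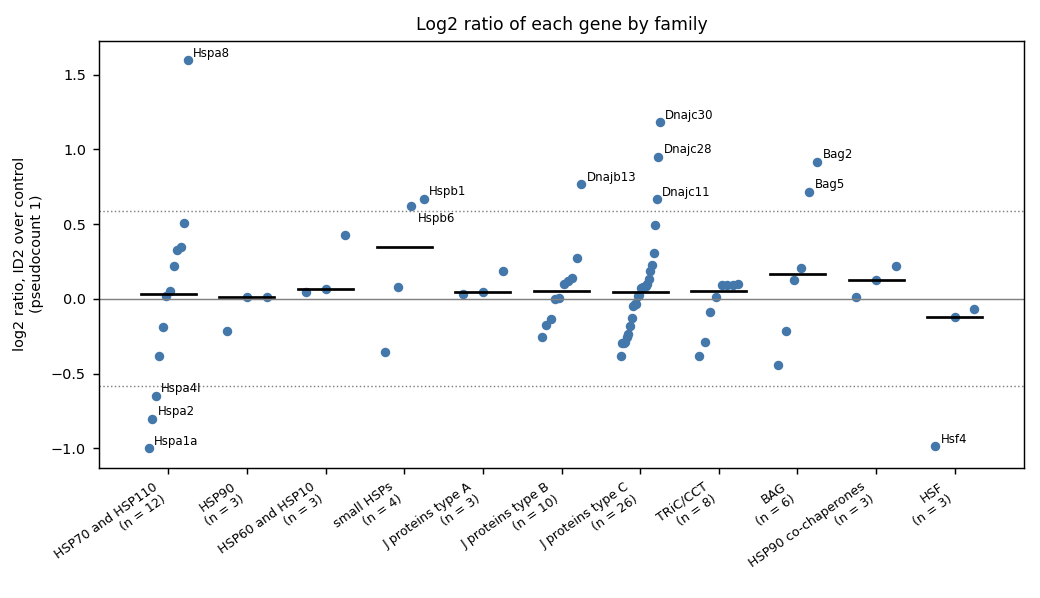
Log2 ratio (ID2 over control, pseudocount 1) of each member by family; points are genes, black bars family medians, dotted lines 1.5-fold. Family medians lie between −0.12 (HSF) and 0.35 (small HSPs), and the named genes are those at least 1.5-fold apart.

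Of the 3 HSP90 genes, Hsp90ab1 was at the maximum in both libraries, as given above. Hsp90aa1, the stress-inducible cytosolic form, held the same whole number in both libraries (64122 and 64747, 0.01), at rank 20 of the sorted values in each. At this level an equal number means an unchanged order among the genes at its own position, and need not mean an equal transcript amount. The same holds for the other members below the maximum that were equal in whole steps. The ER form Hsp90b1 (GRP94) stood at 16777 and 14477 (−0.21). Of the adaptors and co-chaperones of HSP90, Stip1, which links HSP70 to HSP90, was equal in whole steps (13126 and 13254). St13, an HSP70-interacting protein, stood at 19156 and 20899 (0.13), and Ahsa1, an activator of the HSP90 ATPase, at 3206 and 3728 (0.22). For Hsp90aa1, 58.5% of transcript windows occurred in other genes, chiefly Gm12346, which the table lists as a row of its own.

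The mitochondrial chaperonin genes, which share the promoter stretch shown above, were both higher. Hspd1 stood at 21882 and 29492 (1.35-fold, 0.43) and Hspe1 at 7667 and 7924 (1.03-fold, 0.05). The ratios of these neighbours thus differed in size. The pseudogene Hspd1-ps3 stood at 211 and 221 (0.07). Of its windows 60.7% occurred in Hspd1, and of the Hspd1 windows 44.8% occurred in other genes.

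Small heat shock proteins hold unfolded proteins without ATP. Hspb1 (HSP25), the most abundant of them, stood at 6605 and 10509 (1.59-fold, 0.67), with a p of 0.0118 and an adjusted p of 0.793 in the authors' deposited table. It moved from rank 669 to rank 339 of the sorted values, which at this level need not order genes by transcript amount. Hspb6 stood at 410 and 631 (1.54-fold, 0.62) and Hspb2 at 496 and 524 (0.08), while Hspb8, the partner of BAG3, was lower at 1712 and 1336 (−0.36). Of the Hspb1 windows, 60.4% occurred in other genes, mostly in the pseudogene Hsp25-ps1, and of the Hspb2 windows 28.0% occurred in Cryab.

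J proteins carry the domain that stimulates HSP70. The 3 type A members above the floor were all higher, with ratios of 0.03 to 0.19. The main partner Dnaja1 stood at 2870 and 3272, Dnaja2 at 3256 and 3362, and the mitochondrial Dnaja3 at 2450 and 2508. These differences lay inside the range of all genes at their level.

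Type B genes divided evenly, with 5 of 10 higher, 5 lower by whole steps, and a median of 0.05. Dnajb6, a suppressor of aggregation, had the highest level (3387 and 2994, −0.18). The HSF1-inducible Dnajb1 stood at 1127 and 1361 (0.27). Dnajb13, a gene of sperm flagella and cilia, had the largest ratio of the class at low level (71.7 and 123, 1.70-fold, 0.77). Dnajb9, an ER member induced by the unfolded protein response, had the lowest (328 and 275, −0.25).

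Type C, the largest class, had 15 of 26 genes higher, 11 lower and a median of 0.05. Dnajc8, a splicing-associated member, had the highest level (5814 and 6184, 0.09). Dnajc11, a mitochondrial protein of the cristae organizing system, stood at 2615 and 4150 (1.59-fold, 0.67; p of 0.0198 and adjusted p of 0.958 in the authors' deposited table). Dnajc13, an endosomal protein, stood at 4363 and 6154 (1.41-fold, 0.50). These were the members of the class above the range of their level.

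Dnajc30 and Dnajc28, both mitochondrial, had the largest ratios of type C at low levels. Dnajc30 stood at 75.6 and 173 (2.27-fold, 1.18), and Dnajc28 at 91.6 and 178 (1.93-fold, 0.95). The lowest ratio of the class was that of Dnajc19, also mitochondrial, a subunit of the import motor (826 and 633, −0.38). Mitochondrial members therefore stood at both ends of the class. For Dnajc30, 24.0% of windows occurred in the adjacent gene Bud23, and reads of overlapping genes cannot be told apart in a library that does not keep strand.

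Exon structure was also compared. A single exon made up at least 80% of the transcript of 15 members, of which 4 (26.7%: Dnajc30, Dnajc28, Bag2 and Bag5) were at least 1.5-fold higher and 2 (13.3%: Hspa1a and Hspa2) at least 1.5-fold lower. Over all genes of this structure above the floor, 17.0% of 2207 were at least 1.5-fold higher and 8.38% lower; over the 10176 other matched genes, 6.08% were higher and 6.23% lower. Among the 66 other members, 5 (7.58%) passed the 1.5-fold threshold upward and 2 (3.03%) passed it downward. The class was chosen with an earlier result of these data known, and its part in these ratios was not tested.

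BAG proteins release nucleotide from HSP70. Of 6 genes, 4 stood higher and 2 lower (median 0.17). Bag2, an inhibitor of the ubiquitin ligase CHIP, stood at 219 and 414 (1.89-fold, 0.92), and Bag5 at 248 and 408 (1.64-fold, 0.72). The stress-induced Bag3 stood at 690 and 798 (0.21), and Bag6, which guides tail-anchored proteins and was the most abundant of the class, at 9505 and 10393 (0.13). Bag1 (2556 and 2205, −0.21) and Bag4 (1011 and 745, −0.44) were lower.

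The 8 TRiC subunit genes above the floor, which encode the 8 subunits of each ring, kept close to their control values. In whole steps 4 were higher, 3 lower and 1 equal, and log2 ratios lay between −0.38 and 0.10 with a median of 0.05. Cct4 had the largest difference (16818 and 12885, 1.31-fold lower), followed by Cct7 (8021 and 6583, −0.29). Cct2 stood at 15431 and 14492 (−0.09). Tcp1 stood at 7983 and 8570 (0.10), Cct3 at 9979 and 10656 (0.09), Cct5 at 12119 and 12911 (0.09) and Cct8 at 12041 and 12864 (0.10). Cct6a was equal in whole steps (12466 and 12588). The germ cell subunit gene Cct6b was under the floor (44.8 and 37.2).

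**Figure D5:**
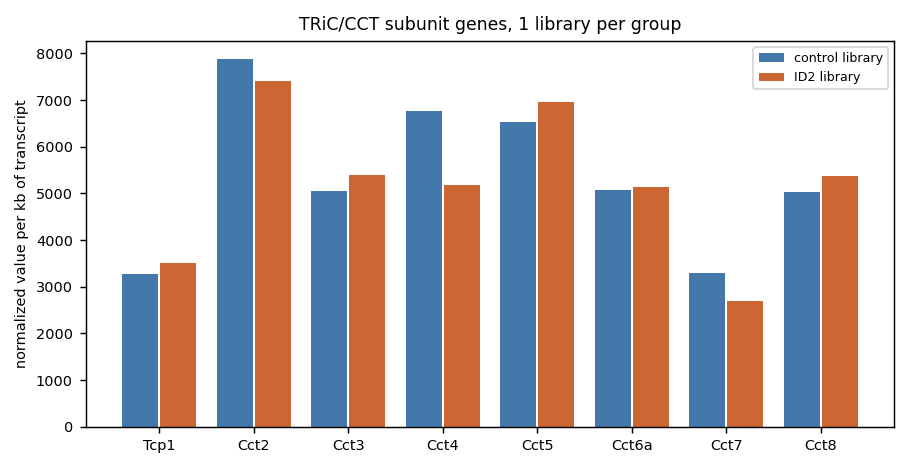
Normalized value per kilobase of transcript for the 8 TRiC subunit genes above the floor, in the control and the ID2 library (1 library each, no error bars). Subunits span 2.41-fold in the control library and 2.74-fold in the ID2 library. At means above 8000 values order genes at 1 position, so bars of different genes need not compare as transcript amounts.

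Per kilobase of transcript, TRiC subunit levels ran from 3264 (Tcp1) to 7877 (Cct2) in the control library, a 2.41-fold span. In the ID2 library they ran from 2697 (Cct7) to 7398 (Cct2), a 2.74-fold span. Among all members, the highest control levels per kilobase were those of Hsp90ab1 (46654, at the maximum), Hsp90aa1 (19543) and Hspa8 (16389), followed by Hspa9 (11144), Hspe1 (9905) and Hspd1 (9031). In the ID2 library Hspa8 (49588) and Hsp90ab1 (47109) were both at the maximum, so their order was set by length alone. The members together held 2.22% of the summed values of the control library and 2.61% of the ID2 library; without Hspa8 these shares were 2.06% and 2.14%.

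Heat shock factors are the transcription factors of the response. Hsf1, its main activator, stood at 1463 and 1347 (−0.12), Hsf2 at 816 and 778 (−0.07), and Hsf4, known from the lens, at 68.7 and 34.2 (1.98-fold lower, −0.99), next to the floor. All 3 were lower, and none lay outside the range of its level. Of 24 genes listed as induced through HSF1, 23 were above the floor, of which 13 stood higher, 7 lower and 3 equal (median 0.19); 4 (17.4%) were at least 1.5-fold higher, beside 8% of all genes, and 2 (8.70%) at least 1.5-fold lower, beside 6.59%. The members Hspa8 and Hspb1 and the non-members Chordc1 (1336 and 2329, 1.74-fold) and Cryab (175 and 267, 1.52-fold) were the 4, and the members Hspa1a and Hspa4l the 2. Of the 6 listed genes that are not members, 3 were higher and 3 lower (median 0.09).

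Of 21 listed ER chaperone genes, 7 stood higher and 14 lower (median −0.05, beside −0.0023 for all genes). Of these, 0 were at least 1.5-fold higher, beside 8% of all genes. At least 1.5-fold lower was 1 (Sil1, 4.76%, beside 6.59% of all genes). The 3 members printed above with an ER stress element stood at 0.05 (Hspa5), −0.21 (Hsp90b1) and −0.03 (Dnajc3, 2655 and 2597). The lowest was Sil1, an exchange factor of BiP (611 and 387, −0.66), and the lectin chaperones Calr (24310 and 18394, −0.40) and Canx (23207 and 19343, −0.26) followed. Mitochondrial chaperone genes above the floor numbered 16 (9 higher, 7 lower, median 0.04). The 3 that were at least 1.5-fold higher (18.75%, beside 8% of all genes) were Dnajc11, Dnajc28 and Dnajc30. None was at least 1.5-fold lower, beside 6.59% of all genes. Dnajc28 and Dnajc30, both at low level, lay inside the range of their quintile. Of 54 further chaperone genes above the floor that the rule did not name, 21 were higher, 31 lower and 2 equal (median −0.02). Among these 54, Chordc1 (0.80), an HSP90-binding protein, had the largest ratio, and Pdrg1 (−0.74), Sgtb (−0.74) and Sil1 had the next largest by size.

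The label was checked against markers. All 9 embryonic stem cell markers listed, Pou5f1, Sox2 and Nanog among them, were above the floor, with 6 higher, 2 lower and 1 equal (median 0.23). Of 10 fibroblast and feeder cell markers 6 were in the table and 4 above the floor, with 1 higher and 3 lower (median −0.53). The summed value of these 4 was 2265 in the control library and 1598 with ID2. Among them Col1a1 stood at 339 and 139 (2.44-fold lower) and Loxl1 at 191 and 262 (1.37-fold higher). Of 6 primitive endoderm markers 4 were above the floor, with sums of 302 and 352. Within these sums Sox7 stood at 16.9 and 127 and Gata4 at 146 and 76.4, in opposite directions. The part of such cells in the ratios above was not tested.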

How the data were processed

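Per the labels' protocols, Trizol was used for RNA and an unstranded TruSeq v2 kit for the libraries. The submitters' processing notes name STAR, DESeq and build mm9, while for versions, annotation and read counting the sources used here give nothing. The authors deposited 1 table with a normalized signal value per library, their mean, the fold (ID2 over control), its log2, and p-values before and after adjustment. With 1 library per group no test was run; the authors' p-values are quoted only as theirs, and the depth of each library is unknown.

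A log2 ratio with a pseudocount of 1 was computed for each gene, which understates the ratio of low genes. The floor was a mean of 50. Transcript lengths, exons, GC content and shared 50-base windows (either strand) came from 1 transcript per gene of GENCODE M21 (GRCm38; all 81 members matched), of which no coordinates were used; promoters came from RefSeq (GRCm38.p6). Coding identity used the longest open reading frame and a global alignment (Biopython 1.88). Protein sequences were not used here. Python 3.11.15, numpy 2.4.6 and pandas 2.3.3 were used, and the ratio script was tested on simulated data.

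Members, lists and tests were chosen with earlier results of these data known. Named genes were members at a column maximum or at least 1.5-fold apart, the highest level and the extreme ratios of each class, all members of the smaller classes, those next to the floor, and the 4 largest ratios of the other chaperones. Genes named outside this rule (the other genes at the maximum, those at the position of Hspa8, the genes with shared sequence, the markers, and Hspb2, Dnajc13, Dnajb1, Dnajc3, Hsf5, Cryab, Calr and Canx) were chosen after their values were seen. Alternatives changed the pseudocount, floor, scaling, fold threshold, ceiling and the members left out.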

Additional observations from a re-analysis of the deposited data

How the results depend on the processing

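Of 647 recomputed values, 628 moved by at most 0.1 (log2) or, for counts, 1.5 times, and 19 moved more. Many could hardly move. Scalings could hardly exceed this tolerance, the next-value ceiling altered only values at a maximum, and the authors' log2 column differed by the pseudocount alone. A ratio at least 2-fold apart could hardly change sign under any of these alternatives. The 628 are thus no measure of robustness. Of log2 ratios at least 2-fold apart, 0 changed sign, while 3 values near 0 did: the HSP90 class median (0.01, given below), and in whole steps Dnajb11 (0.0087 and −0.0053) and Dnajb2 (0.00067 and −0.013). The count of members at least 2-fold higher was 2, and 1 with a floor of 250, without genes at the ceiling, with the ceiling at the next highest value, without members sharing at least 50% of their windows, or without members mostly in 1 exon, and 0 at 4-fold. The count at least 2-fold lower was 0, and 2 with a pseudocount of 0.1, in whole steps or by the authors' log2 column. Without members mostly in 1 exon, 5 were at least 1.5-fold higher and 2 lower; with a floor of 250, 1 was at least 1.5-fold lower. The class median without a floor was 0.079 for small HSPs and −0.39 for HSF; with a floor of 250 it was 0.14 for HSP70 and HSP110 and 0.24 for HSP60 and HSP10; without genes at the ceiling it was −0.10 for HSP90. The Hspa8 log2 ratio was 0.73 with the ceiling at the next highest value, and the Hsf4 ratio −0.83 with a pseudocount of 10. Chosen after seeing the data were the next-value ceiling and the alternatives on shared windows and on exons. Without predicted or unnamed genes the background median was 0.0017. No paired analysis was possible because each group has 1 library, and no library could be left out.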
